A study of Mus musculus with 6 samples.

Results

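The IL-1 family joins cytokines that alarm neighboring cells of injury or infection with the receptors that read them and the proteins that hold them back. The family members described here are the cytokines Il33, Il1a, Il1b and Il18, the receptor chains Il1rl1, Il1r1 and Il1rap, and the inhibitors Il1rn, Il1r2 and Il18bp. They were chosen by name as the classical ligands, receptors and inhibitors of the family, and all 10 were found among the 56980 genes of the deposited expression table. RNA was measured in tumor-associated macrophages (TAMs) that were sorted as live CD45+CD11b+Ly6G-F4/80+ cells from tumors 2 months after ID8 cells, a mouse ovarian epithelial cancer line, were injected into the peritoneal cavity of female C57BL/6 mice bought at 6 to 8 weeks of age. There were 3 libraries from WT hosts and 3 from C5aR-/- hosts on the same background, which lack the receptor for complement C5a in every cell type of the host, while the injected ID8 cells came from the same line in both groups. The legends of the paper count more mice per group than the libraries analysed here, and the labels do not say whether each library came from a separate mouse, so the tests measure the spread between libraries.

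Interleukin-1 is made as the products of Il1a and Il1b, which bind the same receptor, Il1r1. Binding recruits the accessory chain Il1rap, and signaling runs through Myd88 and IRAK kinases to NF-kB. Il1rn encodes an antagonist that occupies Il1r1 without signaling, and Il1r2 encodes a decoy receptor with no signaling domain. Il33 is stored in the nuclei of stromal, epithelial and mesothelial cells and released on damage. It signals through Il1rl1 (ST2), also paired with Il1rap, on mast cells, group 2 innate lymphoid cells, regulatory T cells and some macrophages. Il18 needs cleavage by caspase-1, as Il1b does, and is bound in solution by the product of Il18bp.

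Values are TPM, transcript abundances scaled by transcript length and library total, which keep no sequencing depth, so no counting error can be given. Each library had between 14393 and 15015 genes at a TPM of at least 1. C5ar1, the deleted gene, read 86.5, 37.3 and 16.2 TPM in the WT libraries, against 0.38, 0.11 and 0.05 TPM in the C5aR-/- libraries. Macrophage markers were present throughout, with Csf1r, the receptor for the macrophage growth factor, between 59.4 and 301 TPM. Markers of other cells were abundant as well, among them the keratin gene Krt8 and the mesothelial gene Upk3b, the latter at 48.8 to 380 TPM. Krt8 was higher in every C5aR-/- library, at 455 to 465 TPM in WT and 624 to 758 TPM in C5aR-/- TAMs. In this bulk RNA, fewer cells of a type and less RNA per cell cannot be told apart.

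To show where the genes sit, positions were read from GENCODE M21 on GRCm38, the assembly called mm10 in the submitters' processing notes. Il1r2, Il1r1 and Il1rl1 lie on the plus strand of chromosome 1, in a row of 6 protein-coding genes that runs from Il1r2 (start 40074079) through Il1r1 (40225080 to 40317257), Il1rl2, Il1rl1 (40429570 to 40465415) and Il18r1 to Il18rap (end 40551705). Il1a (129299610 to 129309972) and Il1b (129364570 to 129371139) are neighbors on the minus strand of chromosome 2, and Il1rn lies apart from them on the plus strand (24336853 to 24351494). Il33 is on chromosome 19 (29925114 to 29960718, plus strand), Il18 on chromosome 9 (50554827 to 50581840, plus strand), Il1rap on chromosome 16 (26581704 to 26730117, plus strand) and Il18bp on chromosome 7 (102014885 to 102018690, minus strand). The noncoding gene Gm14023 overlaps Il1a on the opposite strand and was at 0.92 to 9.89 TPM. Il18 and Il18bp overlap the ends of Bco2 (0.91 to 2.98 TPM) and Numa1 (103 to 121 TPM), also on the opposite strand. The overlap of Numa1 with Il18bp runs from 102014885 to 102014964. Although the library kit marked the strand, it is not stated whether reads were counted by strand.

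The promoters of Il33 and of its receptor Il1rl1 are shown because these 2 genes, which act as a pair, were both lower in every C5aR-/- library. RefSeq (GRCm38.p6) gives each of them 2 start sites, and the gene-level values do not say which was used. The 250 bases before each start are written 5' to 3', all on the plus strand, with motif matches in capitals. The windows are chr19:29924863-29925112 and chr19:29945540-29945789 for Il33, and chr1:40429320-40429569 and chr1:40439379-40439628 for Il1rl1.
Il33, first start: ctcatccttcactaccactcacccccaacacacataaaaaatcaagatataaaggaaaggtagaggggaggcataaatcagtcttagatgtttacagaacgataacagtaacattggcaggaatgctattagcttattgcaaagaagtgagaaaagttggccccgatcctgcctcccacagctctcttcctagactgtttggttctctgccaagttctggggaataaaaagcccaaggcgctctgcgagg
Il33, second start: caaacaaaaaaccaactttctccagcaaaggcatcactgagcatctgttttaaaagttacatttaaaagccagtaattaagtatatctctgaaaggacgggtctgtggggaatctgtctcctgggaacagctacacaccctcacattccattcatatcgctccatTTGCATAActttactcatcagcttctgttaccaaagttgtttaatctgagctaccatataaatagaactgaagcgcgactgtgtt
Il1rl1, first start: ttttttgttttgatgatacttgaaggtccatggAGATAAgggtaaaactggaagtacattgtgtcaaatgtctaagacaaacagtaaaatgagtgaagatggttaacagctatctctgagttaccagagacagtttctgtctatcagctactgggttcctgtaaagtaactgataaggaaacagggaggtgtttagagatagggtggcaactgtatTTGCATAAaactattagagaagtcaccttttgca
Il1rl1, second start: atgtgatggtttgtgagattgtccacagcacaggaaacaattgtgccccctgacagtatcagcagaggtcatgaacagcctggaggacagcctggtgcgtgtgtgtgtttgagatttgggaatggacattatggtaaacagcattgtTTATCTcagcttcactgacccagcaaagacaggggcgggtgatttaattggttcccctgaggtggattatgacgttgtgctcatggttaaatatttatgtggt

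The motifs searched, 4 in all, were looked for on both strands, with the letters AGATAA for GATA factors, TGANTCA for AP-1, TTGCNNAA for C/EBP, and the NF-kB consensus. Both Il1rl1 windows held a GATA match, at 217 to 212 and at 103 to 98 bases before the start, and 9.99% of all 32851 promoter windows of this length held one. The second Il33 window and the first Il1rl1 window held the same C/EBP match, TTGCATAA. Windows of Il1r1 and Il18bp held other C/EBP matches, so 4 of the 15 windows of the 10 genes had one, against 9.56% of all windows. The first Il33 window held a match to none of the 4 motifs. Among the 15 windows of the 10 genes, matches to AP-1 were found in 2 (Il1rn and Il1a, 6.75% of all windows) and to NF-kB in 1 (Il1r1, 7.25%). No matches overlapped. These matches describe letters in the sequence and not binding.

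The order of the levels was alike at its ends in both groups. In WT TAMs the mean ran from Il1b at 109 ± 23.6 TPM (SD, n = 3) over Il1rn at 98.1 ± 3.55 and Il1a at 62.2 ± 47.7 down to Il1r1 at 13.5 ± 1.31, Il1rap at 6.77 ± 0.83 and Il1rl1 at 2.22 ± 0.37. Il1b and Il1rn were among the most abundant 8.91% and 11.1% of the 14776 genes tested, and Il1rl1 was close to the bottom (93.8%). In C5aR-/- TAMs Il1b (106 ± 60.9 TPM) and Il1rn (79.0 ± 26.4 TPM) again came first and Il1rap (3.49 ± 1.35 TPM) and Il1rl1 (0.71 ± 0.16 TPM) last. Neighbors in the WT order from Il1b to Il1r1 had overlapping libraries, and Il1rap lay apart from Il1r1 above it and from Il1rl1 below it.

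**Figure D1:**
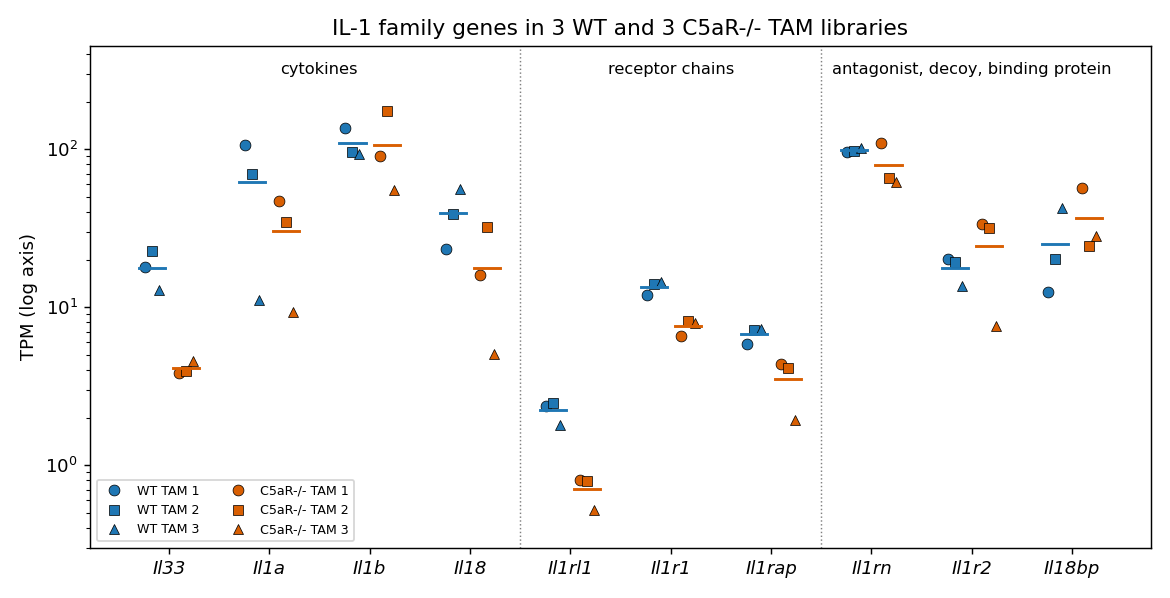
TPM of the 10 IL-1 family genes on a log axis, 1 symbol for each library (blue for WT, orange for C5aR-/-) and a line at the mean of each group of 3. The groups lie apart for Il33, Il1rl1, Il1r1 and Il1rap, with the C5aR-/- libraries lower, and overlap for the other 6 genes.

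WT and C5aR-/- TAMs were then compared over all 14776 genes with limma on log2(TPM + 1), a scale on which differences of weakly expressed genes come out too small. The log2 difference was below 0 for 8 of the 10 genes and above 0 for 2, where 55.5% of all genes tested were below 0. Of the 8, 4 had overlapping groups, and Il1b turned above 0 without WT TAM 1 or C5aR-/- TAM 3. The median log2 difference of the 10 genes was -0.78, beside -0.05 for all genes tested. Il33 was the 1 gene of 10 past the unadjusted threshold (p below 0.05 and at least a 2-fold change), which was passed by 4.96% of all genes (2.84% lower, 2.13% higher). With the p adjusted and the same fold change, limma called 0 of the 10, as it called 0% of all genes, while 2133 genes, 4 of the 10 among them, had an unadjusted p below 0.05 whatever their fold change. In 4 of the 10 genes all C5aR-/- libraries lay below all WT libraries, against 12.5% of all genes, and in 0 of the 10 all lay above, against 8.84%. Il1rl1 is counted among them although it entered the test only through the WT libraries, none of the C5aR-/- libraries reaching a TPM of 1. The study itself displays Il33 among genes it selected from these libraries, so Il33 is no independent evidence of a direction.

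**Figure D2:**
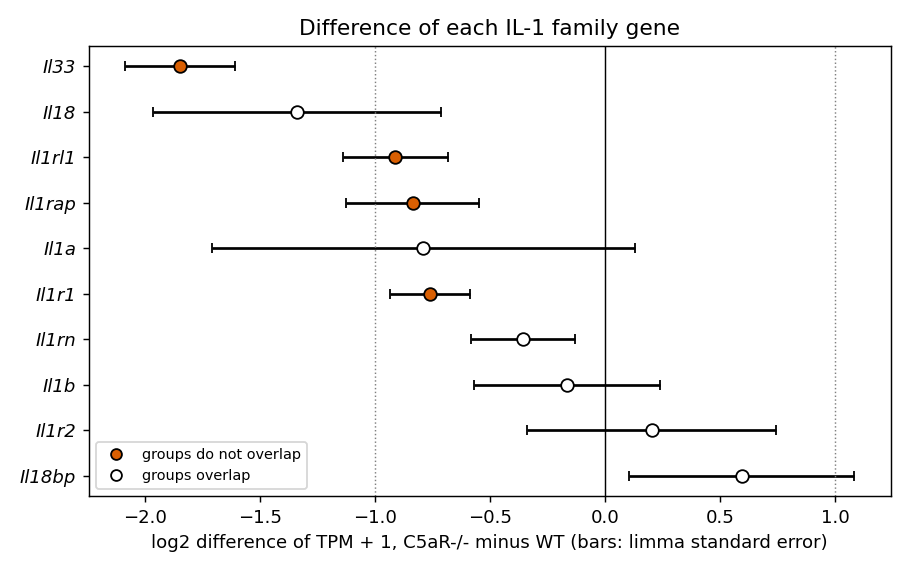
Log2 difference of TPM + 1 (C5aR-/- minus WT) for each gene with its limma standard error as bars, and dotted lines at a fold change of 2. Il33 at -1.85 has the largest difference in size, and the filled points mark the 4 genes whose groups do not overlap.

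Il33, its receptor and the shared receptor chain were all lower in C5aR-/- TAMs, and Il33 alone passed the unadjusted threshold. WT libraries held 17.9, 22.6 and 12.7 TPM of Il33, and C5aR-/- libraries 3.81, 3.92 and 4.55 TPM. The lowest WT library was thus above the highest C5aR-/- library, and the mean was 4.34-fold higher in WT. The log2 difference was -1.85 ± 0.24 (SE, limma unadjusted p = 0.000143, adjusted p = 0.0666). Without C5aR-/- TAM 1 it passed the adjusted threshold (adjusted p = 0.031, limma), and over the 13 alternatives the adjusted p ran from 0.031 to 0.386, the highest without WT TAM 2.

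Il1rl1, the receptor for IL-33, was at 2.38, 2.48 and 1.79 TPM in WT and at 0.81, 0.79 and 0.52 TPM in C5aR-/- TAMs. The groups did not overlap, and the mean was 3.14-fold higher in WT. At these low values the log2(TPM + 1) difference was -0.91 ± 0.23 (SE, limma adjusted p = 0.173), and with a pseudocount of 0.1 it was -1.53 and past the unadjusted threshold. The gene-level value sums the membrane and the secreted decoy forms of this receptor.

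Il1rap, the chain shared by the receptors for IL-33 and IL-1, was at 5.81, 7.19 and 7.30 TPM in WT and at 4.39, 4.14 and 1.93 TPM in C5aR-/- TAMs. All C5aR-/- libraries were again below all WT libraries, with C5aR-/- TAM 3 the lowest. The log2 difference was -0.84 ± 0.29 (SE, limma adjusted p = 0.277), and with a pseudocount of 0.1 it was -1.01 and past the unadjusted threshold. For these 3 genes and Il1r1 the two-sided exact permutation test gave p = 0.1, the smallest that 3 libraries against 3 allow.

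Ratios within a library were taken on TPM + 0.1. That of Il33 to Il1rl1, which does not depend on scaling between libraries, was 7.26, 8.80 and 6.79 in WT and 4.30, 4.52 and 7.50 in C5aR-/- TAMs. C5aR-/- TAM 3 lay within the WT range, and the log2 difference of the ratio was -0.53 (exact permutation p = 0.3, two-sided). With 1 library left out it was from -0.78 to -0.38.

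By the Pearson correlation of log2(TPM + 1) over the 6 libraries, the 5 genes with the pattern most like Il33 were Papola (0.998), Pde1a (0.997), Cabcoco1 (0.997), Gm5547 (0.995) and Hepacam (0.995). The 6 libraries share the 2 host groups, so these values mostly follow the group difference and carry no p. Pde1a, a calmodulin-dependent phosphodiesterase, was at 22.2, 37.4 and 13.8 TPM in WT and at 2.79, 3.14 and 3.73 TPM in C5aR-/- TAMs. Papola, a poly(A) polymerase, differed far less, with means of 93.1 and 76.7 TPM. Among the family, the correlation with Il33 was 0.97 for Il1rl1 and 0.93 for Il1r1.

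Markers of some cells known to make or sense IL-33 differed between the groups, and so did markers of other cells. The large peritoneal macrophage list summed to 268 to 1469 TPM in WT and 111 to 234 TPM in C5aR-/- TAMs. The neutrophil list summed to 642 to 2394 TPM in WT and 31.6 to 408 TPM in C5aR-/- TAMs. The mast cell list of 9 genes, 7 of them tested, had 6 past the unadjusted threshold as lower and 1, Kit, as higher. Over all genes tested, 2.84% passed as lower and 2.13% as higher. Of the 6, Mcpt4 and Fcer1a reached 1 TPM in no C5aR-/- library and entered the test only through the WT libraries. Cpa3 and Tpsb2 reached it in 1 C5aR-/- library each, so they too were tested because of their WT levels. Apart from Cpa3 and Ms4a2, the genes of this list are named after their values were seen. The summed level of the list was from 171 to 201 TPM in WT and from 68.6 to 90.1 TPM in C5aR-/- TAMs, where Kit made up most of it. Cpa3, a mast cell protease, was at 19.0, 11.9 and 26.7 TPM in WT and at 1.59, 0.57 and 0 TPM in C5aR-/- TAMs. Ms4a2, a chain of the IgE receptor, was too low to be tested, at 0.77, 1.01 and 0.38 TPM in WT and 0, 0.06 and 0 TPM in C5aR-/- TAMs. In C5aR-/- TAM 3 both of these genes were listed at 0, while Kit, Cma1 and Hdc of the same list were at 85.4, 2.43 and 2.29 TPM. Il1rl1 was at 0.52 TPM there, its lowest value in the 6 libraries.

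The mesothelial list of 7 genes was at a summed 1210 to 1596 TPM in WT and 776 to 1105 TPM in C5aR-/- TAMs. Past the unadjusted threshold were 4 of its genes as lower and 0 as higher, where 2.84% and 2.13% of all genes were. The members of the list did not move as one, since Msln was at 135 to 180 TPM in WT and 268 to 288 TPM in C5aR-/- TAMs while Upk3b was at 291 to 380 TPM and 48.8 to 206 TPM. The fibroblast list (404 to 605 TPM in WT, 439 to 557 TPM in C5aR-/-), the endothelial list (13.5 to 18.9 and 11.9 to 28.8 TPM), the epithelial tumor list (1843 to 2039 and 1669 to 2211 TPM) and the T cell and lymphoid list (28.7 to 77.3 and 25.0 to 66.5 TPM) overlapped between the groups. The fibroblast genes did not move as one either, with Dcn at 180 to 548 TPM over the 6 libraries. Col1a1 and Col1a2 are named after their values were seen. Col1a1 was at 3.52 to 10.8 TPM in WT and at 1.21, 43.3 and 236 TPM in C5aR-/- TAMs. Col1a2 was lower without overlap, with means of 12.8 and 2.17 TPM. The endothelial markers Cdh5 and Emcn were at or below 0.21 TPM in all 6 libraries. The part of mast cells and of mesothelial cells in the levels of Il33 and Il1rl1 was not tested.

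**Figure D3:**
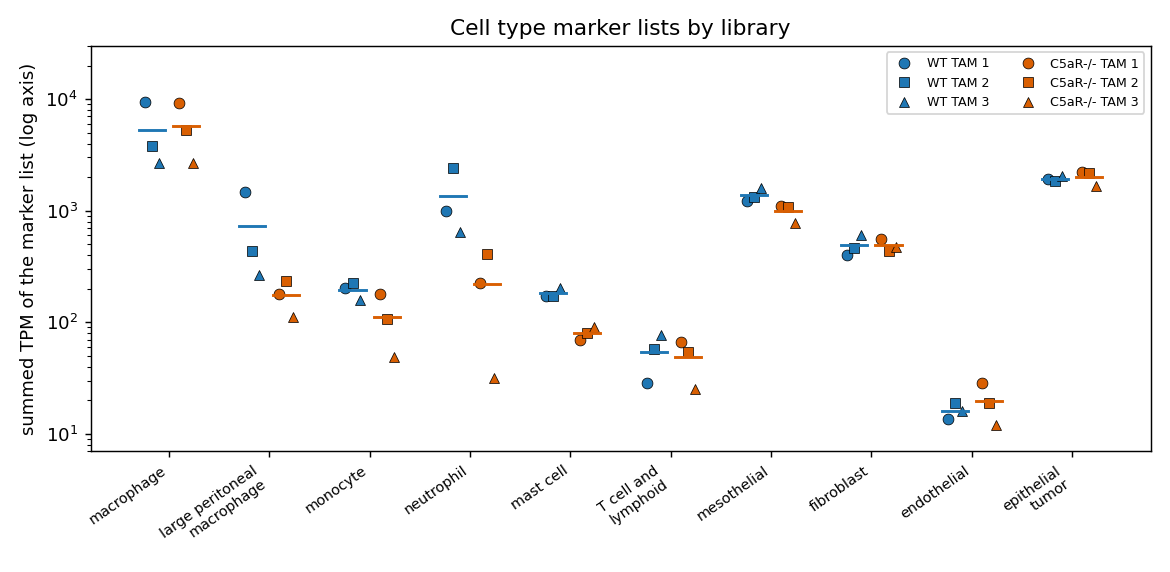
Summed TPM of 10 cell type marker lists on a log axis, 1 symbol for each library and a line at the group mean. The C5aR-/- libraries lie below the WT libraries for the large peritoneal macrophage, neutrophil, mast cell and mesothelial lists, and the groups overlap for the other 6 lists.

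Il1b, the most abundant gene of the family, and Il1a had overlapping groups. Il1b was at 136, 96.4 and 93.5 TPM in WT and at 90.0, 174 and 55.0 TPM in C5aR-/- TAMs, so that both the highest and the lowest library were C5aR-/-. Its log2 difference was -0.17 ± 0.40 (SE, limma adjusted p = 0.882), and it was 0.22 without C5aR-/- TAM 3 and close to 0 without WT TAM 1 (0.0045).

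Il1a, the cell-associated form of interleukin-1, varied more within than between the groups. It was at 106, 69.9 and 11.1 TPM in WT and at 46.9, 34.8 and 9.27 TPM in C5aR-/- TAMs. The log2 difference was -0.79 ± 0.92 (SE, limma adjusted p = 0.735), and without WT TAM 3 it was -1.74 and past the unadjusted threshold. The macrophage marker list summed to 9392, 3803 and 2683 TPM in the same WT libraries and to 9320, 5339 and 2671 TPM in the C5aR-/- libraries, so within each group Il1a was highest where this sum was highest. The part of the macrophage content in Il1a was not tested.

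Il1r1, the signaling receptor for both cytokines, was at 12.0, 14.1 and 14.4 TPM in WT and at 6.55, 8.14 and 7.93 TPM in C5aR-/- TAMs. The groups did not overlap and each was tight, with means of 13.5 ± 1.31 and 7.54 ± 0.86 TPM (SD, n = 3). The log2 difference of -0.76 ± 0.18 (SE, limma adjusted p = 0.152) was under a fold change of 2, and it was from -0.84 to -0.68 with 1 library left out.

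Both inhibitors of interleukin-1 had overlapping groups. Il1rn, the antagonist, was at 95.3, 97.0 and 102 TPM in WT, the smallest spread relative to the mean among the 10 genes, and at 109, 65.8 and 61.8 TPM in C5aR-/- TAMs. C5aR-/- TAM 1 was above and the other 2 below all WT libraries, and the log2 difference was -0.36 ± 0.23 (SE, limma adjusted p = 0.519). Without C5aR-/- TAM 1 it was -0.61, still under a 2-fold change (limma adjusted p = 0.0584), and without C5aR-/- TAM 3 it was -0.21. Il1r2, the decoy receptor, was at 20.3, 19.4 and 13.7 TPM in WT and at 33.6, 31.6 and 7.58 TPM in C5aR-/- TAMs. Its log2 difference of 0.20 ± 0.54 (SE, limma adjusted p = 0.895) turned to -0.15 without C5aR-/- TAM 1 and to -0.10 without C5aR-/- TAM 2.

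Il1r2 is also a gene of neutrophils, and the neutrophil marker list was at a summed 992, 2394 and 642 TPM in WT and at 223, 408 and 31.6 TPM in C5aR-/- TAMs. Within each group Il1r2 was lowest in the library with the lowest neutrophil sum (TAM 3 in both), while across groups the 2 libraries with the highest Il1r2 were among the 3 with the lowest sums. The part of neutrophils in Il1r2 was not tested.

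Within a library, the ratio of Il1rn to the sum of Il1a and Il1b was 0.39, 0.58 and 0.98 in WT and 0.80, 0.32 and 0.96 in C5aR-/- TAMs, a log2 difference of 0.036 (exact permutation p = 1). The groups overlapped, and the difference was -0.28 without WT TAM 1 and 0.53 without C5aR-/- TAM 2. The ratio of Il1r2 to Il1r1 was 1.69, 1.37 and 0.95 in WT and 5.06, 3.85 and 0.96 in C5aR-/- TAMs. Il1r2 RNA exceeded Il1r1 RNA most in C5aR-/- TAM 1 and TAM 2, but C5aR-/- TAM 3 was at the WT minimum (log2 difference 1.03, exact permutation p = 0.3). The difference was 0.56 without C5aR-/- TAM 1 and 1.76 without C5aR-/- TAM 3. This ratio of bulk RNA does not count receptors on a cell. The ratio of Il1a to Il1b was 0.78, 0.73 and 0.12 in WT and 0.52, 0.20 and 0.17 in C5aR-/- TAMs (log2 difference -0.64, exact permutation p = 0.7), and the difference was -1.52 without WT TAM 3 and -0.17 without WT TAM 1.

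Il18 was lower and its binding protein higher on average, and neither passed the threshold. Il18, which drives interferon gamma in T and NK cells, was at 23.4, 38.9 and 55.7 TPM in WT and at 15.9, 32.1 and 5.07 TPM in C5aR-/- TAMs. The log2 difference was -1.34 ± 0.63 (SE, limma adjusted p = 0.39), the groups overlapped, and without C5aR-/- TAM 2 it was -1.91 and past the unadjusted threshold. Il18bp was at 12.5, 20.3 and 42.6 TPM in WT and at 56.7, 24.3 and 28.4 TPM in C5aR-/- TAMs. Its log2 difference was 0.59 ± 0.49 (SE, limma adjusted p = 0.621), and without WT TAM 3 it was 1.05 and past the unadjusted threshold.

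The ratio of Il18bp to Il18 within a library was 0.53, 0.52 and 0.76 in WT and 3.56, 0.76 and 5.51 in C5aR-/- TAMs. All 3 WT libraries held more Il18 than Il18bp, and 2 of the 3 C5aR-/- libraries held more Il18bp, while C5aR-/- TAM 2 lay at the upper WT value. The log2 difference was 2.04, a 4.11-fold difference in the ratio (exact permutation p = 0.2, two-sided), and it was from 1.46 to 2.89 with 1 library left out.

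**Figure D4:**
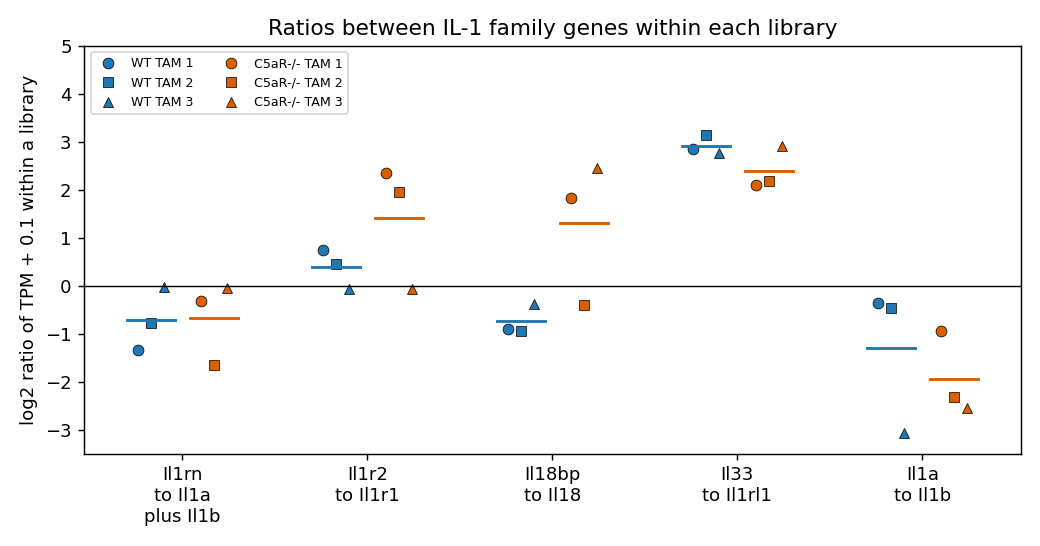
Log2 ratio of TPM + 0.1 between IL-1 family genes within each library, 1 symbol for each library and a line at the group mean. The ratio of Il18bp to Il18 has the largest difference of means (2.04), and the groups overlap in all 5 ratios.

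The rest of the pathway was examined with 5 lists. Of 11 further family genes 5 were tested, and 5 were listed at 0 in all 6 libraries, among them, named after their values were seen, the genes of IL-36 alpha and beta (Il1f6, Il1f8). Il1f9, which encodes IL-36 gamma, was at 2.12, 6.98 and 4.10 TPM in WT and at 0.07, 0.48 and 0.08 TPM in C5aR-/- TAMs. It was the 1 gene of the list past the unadjusted threshold, passed by 4.96% of all genes (log2 difference -2.07 ± 0.38 SE, limma adjusted p = 0.103). Like Il1rl1 it entered the test only through the WT libraries. It was therefore not tested without any 1 WT library, when the count was 0, and without C5aR-/- TAM 1 the count was 2.

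Of the remaining receptor genes of the chromosome 1 row, Il18r1 and Il18rap are the 2 most abundant of the further family genes. Il1rl2 is named here after its values were seen. Il1rl2, the receptor for IL-36, was at 1.75 to 2.58 TPM in WT and 1.93 to 3.75 TPM in C5aR-/- TAMs. Il18r1 was at 3.07, 4.22 and 13.7 TPM in WT and 14.7, 2.33 and 0.83 TPM in C5aR-/- TAMs, and Il18rap at 1.99 to 9.31 and 5.55 to 7.57 TPM. For all 3 the groups overlapped. Sigirr, an inhibitory receptor of the family, was at 2.75, 4.30 and 3.67 TPM in WT and at 4.61, 8.54 and 7.33 TPM in C5aR-/- TAMs (log2 difference 0.75, limma adjusted p = 0.293), and it is named here after its values were seen.

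Of 21 signaling genes tested, 0 passed the unadjusted threshold in either direction, where 4.96% of all genes did. The median log2 difference was -0.0023. The 2 most abundant were Rela, a subunit of NF-kB, with means of 114 and 122 TPM in WT and C5aR-/- TAMs, and Ube2v1, a ubiquitin-conjugating enzyme variant, with 106 and 104 TPM. Without C5aR-/- TAM 1 the count was 1.

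Of 24 genes for maturation and release, 23 were tested, 1 passed as higher and 1 as lower, where 2.13% and 2.84% of all genes did. The median was -0.21 (-0.071 without C5aR-/- TAM 3). Panx1, a channel for ATP release, was at 6.26, 4.89 and 10.2 TPM in WT and 7.44, 27.9 and 27.3 TPM in C5aR-/- TAMs. Ctsg, a neutrophil and mast cell protease that can cleave IL-33 and IL-1 precursors, had means of 7.47 and 1.44 TPM. Casp1, which processes Il1b and Il18, had means of 41.8 ± 16.7 and 32.7 ± 3.16 TPM (SD, n = 3), and Nlrp3, a sensor that activates it, of 20.6 ± 12.0 and 14.9 ± 10.4 TPM, both chosen after their values were seen. The 2 most abundant, Txnip and Gsdmd (the pore protein of pyroptosis), had means of 349 and 272 TPM and of 245 and 205 TPM. The count of 2 became 0 without WT TAM 1, WT TAM 2 or C5aR-/- TAM 3.

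Of 24 genes that interleukin-1 and NF-kB classically induce, 22 were tested, 17 had a log2 difference below 0 and 5 above, beside the 55.5% below 0 over all genes. The median was -0.52, and it was -0.95 without C5aR-/- TAM 1 and -0.22 without WT TAM 1. Past the unadjusted threshold were 3 genes, all lower, where 2.84% of all genes tested passed as lower. Saa3, an acute phase protein, was at 1499, 749 and 905 TPM in WT and at 211, 318 and 44.5 TPM in C5aR-/- TAMs (log2 difference -2.79, limma adjusted p = 0.176). Lcn2, an iron-sequestering protein, was at 45.7, 76.1 and 117 TPM in WT and at 20.1, 20.6 and 5.20 TPM in C5aR-/- TAMs. Cxcl5, a neutrophil chemokine, was at 1.04, 1.02 and 7.30 TPM in WT and at 0.07, 0.22 and 0.29 TPM in C5aR-/- TAMs, so its WT mean rests on WT TAM 3, and it entered the test only through the WT libraries.

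Cxcl2, the other of the 2 most abundant genes of this list, had overlapping groups, at 1512, 728 and 218 TPM in WT and at 1356, 573 and 164 TPM in C5aR-/- TAMs. Sod2, a mitochondrial superoxide dismutase named after its values were seen, was at 112, 116 and 80.6 TPM in WT and at 51.5, 69.7 and 65.8 TPM in C5aR-/- TAMs, with no overlap and a log2 difference under a 2-fold change (-0.71 ± 0.19 SE, limma adjusted p = 0.203). The count of 3 was 7 without C5aR-/- TAM 1 and 2 without WT TAM 1, WT TAM 2, C5aR-/- TAM 2 or C5aR-/- TAM 3. Saa3 is also made by mesothelial cells and Lcn2 by neutrophils, and the lists of these cells were lower in C5aR-/- TAMs as given above, and the part of these cells was not tested.

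Of 16 genes tied to IL-33 responses, 9 were tested, 6 had a log2 difference below 0 and 3 above, with a median of -0.28 that was -0.41 without C5aR-/- TAM 1 and 0.042 without WT TAM 1. The 2 past the unadjusted threshold were higher, against the direction of Il33, where 2.13% of all genes tested passed as higher. Ccl17, a chemokine for type 2 T cells, was at 0.61, 3.25 and 2.79 TPM in WT and at 7.11, 12.7 and 7.97 TPM in C5aR-/- TAMs (log2 difference 1.75, limma adjusted p = 0.165). Areg, an epidermal growth factor receptor ligand, was at 2.76, 1.91 and 0.21 TPM in WT and at 3.22, 4.16 and 6.11 TPM in C5aR-/- TAMs (limma adjusted p = 0.319). The 2 most abundant, Arg1 (means 108 and 232 TPM) and Retnla (60.1 and 21.2 TPM), are marker genes of alternative activation and had overlapping groups.

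The count of this list was 3 without WT TAM 1 and 1 without WT TAM 2 or C5aR-/- TAM 2. The type 2 cytokine genes Il4, Il5, Il9 and Il13, named after their values were seen, were not tested, with Il4 at 0.43 to 0.90 TPM in WT and 0.20 to 0.55 TPM in C5aR-/- TAMs and the other 3 at or below 0.32 TPM in every library. Il2ra and Klrg1, also untested and named after their values were seen, were lower without overlap. Il2ra was at 0.71 to 1.30 TPM in WT and 0.14 to 0.39 TPM in C5aR-/- TAMs, and Klrg1 at 0.23 to 0.65 and 0 to 0.05 TPM.

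**Figure D5:**
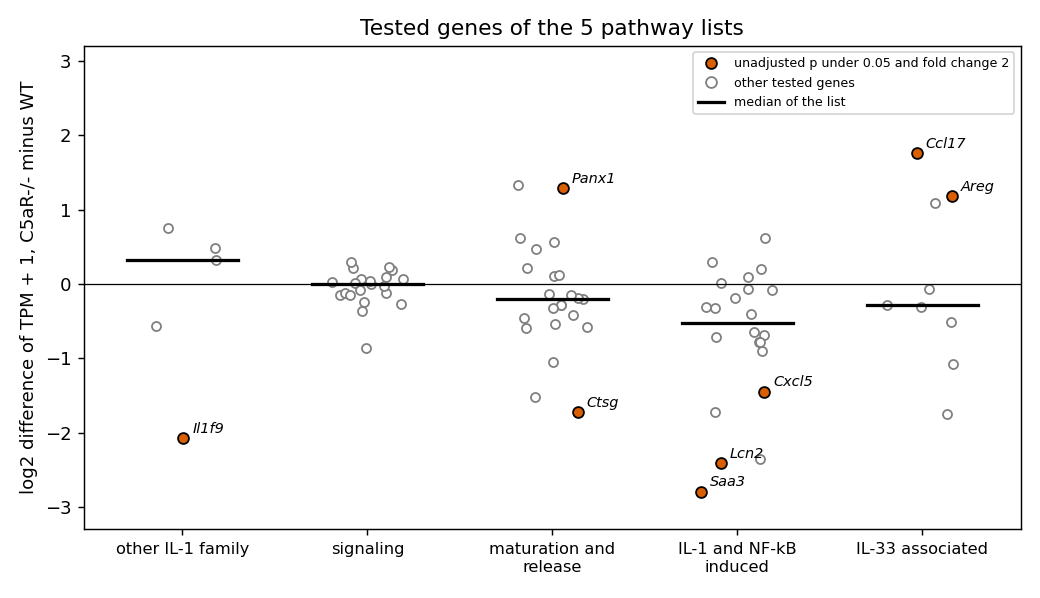
Log2 difference of TPM + 1 (C5aR-/- minus WT) of the tested genes of 5 pathway lists, 1 point for each gene and a black line at the median. The filled and named points are the 8 genes past the unadjusted threshold, 5 of them lower and 3 higher.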

How the data were processed

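Poly(A) RNA of sorted TAMs was sequenced in 3 WT and 3 C5aR-/- libraries, grouped by their titles. Per the methods of the study, the authors trimmed with fastp, mapped with HISAT2 and quantified with StringTie as FPKM. Versions are not given in the sources used here. The submitters' notes also list RSEM and DESeq2, without their role, and the build mm10. The deposited values are TPM, summing to 1000000 per library. TPM keeps no depth, so errors come from the spread between libraries alone. The table's 2 further columns hold the authors' group means and were not used.

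Symbols were matched by Ensembl gene ID in a table of mouse gene names (52073 of 56980 genes), and where several IDs shared a symbol the one of highest mean TPM kept it. Positions came from GENCODE M21. A gene was tested if 3 or more libraries reached 1 TPM. The test was run with limma 3.58.1 (R 4.3.3) on log2(TPM + 1), eBayes with trend, and Benjamini-Hochberg adjustment over all 14776 genes. Thresholds were those of the paper, p under 0.05, adjusted or not, with a fold change of at least 2. Ratios within a library used TPM + 0.1 and a two-sided exact permutation test. Tables were handled with Python 3.11.15, pandas 2.3.3, numpy 2.4.6 and matplotlib 3.10.9. The limma fit was tested on simulated data.

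The genes, lists, markers and tests were chosen with earlier results of these data known. Named genes are the 10 members, C5ar1, in each list those past the unadjusted threshold (at most 4 per direction) and the 2 most abundant, the 5 nearest patterns of Il33, and defining markers, apart from genes said to be chosen after their values were seen. The monocyte, B cell and dendritic cell lists were at a summed 158 to 223, 32.1 to 160 and 41.8 to 51.4 TPM in WT and 49.3 to 179, 8.09 to 154 and 31.0 to 88.5 TPM in C5aR-/- TAMs, and the large peritoneal macrophage list at 268 to 1469 and 111 to 234 TPM. The alternatives were a pseudocount of 0.1 (1 for ratios), a minimum of 5 TPM or none, scaling by quantiles or by median of ratios, a block for the replicate number, eBayes without trend, and leaving out each library in turn, with the filter applied anew.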

Additional observations from a re-analysis of the deposited data

How the results depend on the processing

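Il33 passed the unadjusted threshold under all 13 alternatives and passed the adjusted one without C5aR-/- TAM 1, where 1 of the 10 genes was called (0 to 1 with 1 library left out). The count of 1 at the unadjusted threshold became 3 with a pseudocount of 0.1, where Il1rl1 (-1.53) and Il1rap (-1.01) joined and the count over all genes was 919 against 733, and ranged between 1 and 3 when 1 library was dropped. Leaving out 1 library gave log2 differences from -1.74 to -0.12 for Il1a, -0.60 to 0.22 for Il1b, -0.61 to -0.21 for Il1rn, -1.91 to -0.69 for Il18, -0.15 to 0.86 for Il1r2 and 0.20 to 1.05 for Il18bp. Il1rl1 was not tested at a TPM of at least 5 or without any 1 WT library. The difference in the log2 ratio of Il33 to Il1rl1 was -0.94 with a pseudocount of 1, which by its size weighs on Il1rl1.

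The list counts moved as follows. Further family genes called were 0 at a TPM of at least 5 and 0 to 2 with 1 library left out, and signaling genes 0 to 1. Maturation genes were 1 with no filter, 1 at a TPM of at least 5 and 0 to 3 with 1 library left out. Induced genes were 2 to 7 with 1 library left out. IL-33 response genes were 1 with a pseudocount of 0.1, 1 with no filter, 1 at a TPM of at least 5 and 1 to 3 with 1 library left out, when their median was from -0.41 to 0.042. Fewer genes were tested at the higher TPM minimum, and the other causes were not tested. Over all genes, the unadjusted 733 became 475 at a TPM of at least 5 and 518 to 1220 with 1 library left out, and the adjusted 0 became 2 without the trend and 0 to 349, the highest without C5aR-/- TAM 1. Higher and lower genes numbered 314 and 419, against 386 and 371 with quantile normalization.

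Over all genes tested, same-numbered libraries deviated together weakly at most, with correlations of deviations of 0.19, -0.01 and 0.27. Libraries numbered 1 and 3 correlated best with their own number, and those numbered 2 did not. With the replicate block 1 of the 10 genes passed the unadjusted threshold (Il33, -1.85), and the maturation, induced and IL-33 response lists had 4, 5 and 4 genes called. For Il1a the log2 difference stayed at -0.79, while its limma unadjusted p went from 0.42 to 0.0183 with the block (adjusted p = 0.238). The weak correlations over all genes do not hold for each list. The macrophage list fell from TAM 1 to TAM 3 in both groups (9392, 3803 and 2683 TPM in WT, 9320, 5339 and 2671 TPM in C5aR-/-). Without the block, such a shared fall counts as spread between libraries.

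Depth is unknown, so its effect on the low values of Il1rl1 and Il1f9 was not tested.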
